A study of Arabidopsis thaliana with 33 samples.

Results

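Ts-1 and Col-0, natural accessions of Arabidopsis thaliana, were compared at the low irradiance at which both were grown. The comparison takes 6 of the 33 arrays of the series, 3 of Ts-1 and 3 of Col-0, and all 27826 loci of the deposited table. Rosettes were harvested on day 25 after sowing, 1 hr into the light period, at 100 μmol photons per square metre per second (LL). Both accessions had been grown in 10 hr days at 20 °C and 14 hr nights at 18 °C, each replicate pooled 3 whole rosettes of 1 accession, and no other treatment is named. The same harvest at 550 μmol photons (HL, 3 arrays of Ts-1 and 3 of Col-0) serves to set the LL difference in context. So do 3 arrays of another accession, Ga-0, in LL. Col-0 arrays of other times are used in the same way, with 3 arrays per group. They are Col-0 LL of day 24, and Col-0 LL and HL at 3.5 hr on day 25. The others are Col-0 LL and HL of day 26, at 25 hr after the irradiance increase. The labels do not say whether the pools came from separate sowings, so the p-values measure the spread between pools, which may in part be technical.

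Natural accessions of Arabidopsis differ from each other in many loci that shape how they meet pathogens, herbivores and seasons. Glucosinolates, sulfur-rich compounds made from amino acids and broken down to toxic products when a leaf is chewed, vary in kind and amount between accessions. Immune receptors are among the most variable genes of the species, and FLC and its relatives set much of the variation in flowering time. The probes of the array were designed on the Col-0 sequence, so a lower signal in Ts-1 and a sequence difference under a probe cannot be told apart at any single locus.

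The deposited values hold the digits of RMA signals without their decimal point. Levels of different genes could therefore not be compared, nor could the leaf identity of the samples be checked by marker levels. A difference between the accessions is known only up to a factor of 10, and it was read as the smallest change that fits the digits, at most 1.66 on the log2 scale. Above a 2.51-fold change the direction was treated as not settled, and both readings are given. Below it, the value printed is still a reading: the alternative would be a change of more than 3.98-fold the opposite way. Replicates of a group were placed together at the powers of 10 that bring them nearest each other, and placing each array on its own was run as an alternative. Array values are given as signal relative to the geometric mean of the 3 Col-0 LL arrays, set to 1, and differences as Ts-1 minus Col-0 on the log2 scale with the standard error of the limma fit.

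The 6 arrays followed their labels. Each Ts-1 LL array had other arrays of Ts-1 as its nearest, and each Col-0 LL array had arrays of Col-0. The root mean square distance over all loci was 0.195 to 0.225 between Ts-1 LL arrays, 0.181 to 0.192 between Col-0 LL arrays and 0.312 to 0.352 between the accessions (log2). The median residual SD was 0.111. None of the 14 markers of flower, seed and root passed the test, with differences between -0.17 and 0.18.

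In LL, 2078 of 27826 loci (7.47%) were called different. A locus was called when its p in limma, adjusted by Benjamini-Hochberg over all loci, was below 0.05 and Ts-1 was at least 1.4-fold above or below Col-0. Of these, 1044 read higher in Ts-1 (3.75% of all loci) and 1034 lower (3.72%), and the median difference over all loci was 0.026. Without the fold limit, 5999 loci (21.6%) passed. At 2043 of the called loci (7.34% of all loci), the 3 Ts-1 arrays and the 3 Col-0 arrays did not overlap, and over all loci they did not overlap at 30.4%. Most called differences were modest, with 935 between 0.49 and 0.66 and 714 between 0.66 and 1.00 on the log2 scale. There were 174 called loci beyond 2.51-fold, whose direction is not settled. The smallest readings among Ts-1, Ga-0 and Col-0 in LL did not add up at 88 called loci (4.23%), so at least 1 of the 3 differences exceeds the limit there. Set against Col-0 LL arrays of the day before or the day after, Ts-1 LL gave 2323 (8.35%) and 1942 (6.98%) called loci, while Col-0 LL of those days differed from Col-0 LL of day 25 at 79 (0.284%) and 7 loci (0.0252%).

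**Figure D1:**
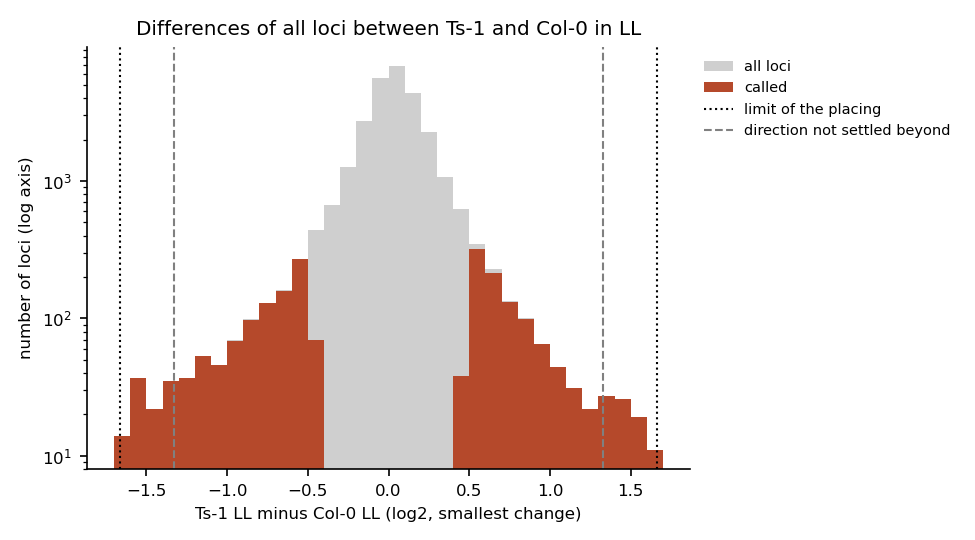
Number of loci (log axis) by the difference Ts-1 LL minus Col-0 LL on the log2 scale, in bins of 0.1, for all 27826 loci (grey) and the 2078 called loci (red). Dotted lines mark the limit of 1.66 and dashed lines a 2.51-fold change, beyond which the direction of 174 called loci is not settled, and the counts of called loci do not fall to 0 at the limit.

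Genes for the synthesis of aliphatic glucosinolates stood higher in Ts-1. Of 30 measured members of the list, 12 were called higher and 1 lower (43.3% called, against 7.47% of all loci), and the median difference was 0.45. Without the 3 called members whose direction is not settled, 10 were higher and 0 lower. The pathway lengthens methionine by cycles of carbon addition, turns the product into an aldoxime, adds sulfur and a sugar, and then alters the side chain. MAM1, the condensing enzyme of the elongation cycle, had a relative signal of 2.38, 2.77 and 1.86 in the Ts-1 LL arrays, against 1.05, 1.07 and 0.888 in the Col-0 LL arrays. The Ts-1 arrays lay above every Col-0 array, and the difference was 2.31-fold (log2 1.21 ± 0.18, SE, adjusted p = 5.6e-06).

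The isomerase of the same cycle has small subunits that are set aside for glucosinolates, and 1 of them, IPMI1, read 2.42-fold higher. Its arrays had 2.55, 2.76 and 2.02 in Ts-1, against 1.08, 0.977 and 0.951 in Col-0 (log2 1.28 ± 0.17, SE, adjusted p = 7.6e-07). BAT5, which carries the chain-elongation intermediates into the chloroplast, had 2.04, 3.05 and 1.75 in Ts-1, against 1.02, 1.11 and 0.88 in Col-0. That is 2.22-fold higher, with the second Ts-1 array the highest of the 6. With each array placed on its own, the adjusted p was 0.099 for IPMI1 and 0.14 for BAT5, at the same differences. CYP83A1, which oxidizes the aldoxime, had 2.18, 2.21 and 1.74 in Ts-1, against 1.08, 1.0 and 0.925 in Col-0, a 2.03-fold difference (log2 1.02 ± 0.11, SE, adjusted p = 1.2e-08). MYB28, the main transcriptional activator of the pathway, was 1.68-fold higher, with 1.49, 1.99 and 1.59 in Ts-1, against 1.1, 0.979 and 0.929 in Col-0. Also called higher were the aldoxime-forming CYP79F1 (1.46-fold) and CYP79F2 (1.58-fold), the glutathione transferase GSTU20 (1.85-fold), the sulfotransferase SOT18 (1.59-fold) and the side-chain oxygenase FMO GS-OX2 (1.45-fold). FMO GS-OX2 was the weakest of them, and its adjusted p moved to 0.11 without Col-0 LL replicate 1, to 0.097 without Ts-1 LL replicate 2 and to 0.091 without Col-0 LL replicate 2.

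For 3 further members the direction of the difference is not settled, and its size depends on the direction. BCAT4, which deaminates methionine at the entry of the pathway, was 2.65-fold higher or 3.77-fold lower. IPMI2, another small subunit of the isomerase, was 2.83-fold higher or 3.53-fold lower. MAM3 (annotated as IMS2), the second condensing enzyme, was 3.22-fold higher or 3.11-fold lower. With replicates placed together, the arrays of each of the 3 did not overlap between the accessions. With each array placed on its own, the size (log2) was 0.30 for BCAT4, 0.39 for IPMI2 and 0.58 for MAM3. The adjusted p values were then 0.77, 0.7 and 0.36. Ga-0 LL arrays, which share their Col-0 baseline with Ts-1 and are given for comparison, had 0.853, 0.528 and 0.921 for MAM1, 1.21, 0.847 and 1.11 for BAT5 and 2.19, 1.9 and 1.87 for CYP83A1. Ts-1 LL exceeded Ga-0 LL at BAT5 by 1.09 (log2, adjusted p = 6.0e-05), whereas at CYP83A1 their difference was 0.04 (adjusted p = 0.89).

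Related lists did not move as one. Among 16 genes of indole glucosinolates and camalexin, 12.5% were called, against 7.47% of all loci, and the median was 0.18. MYB34, an activator of the indole branch, was called 1.62-fold lower and CYP71A13, an enzyme of camalexin synthesis, 1.89-fold higher. The call of CYP71A13 rested on adjusted p = 0.029 and moved to between 0.05 and 0.083 in 5 of the 6 fits that each left out 1 array. Of 12 genes of glucosinolate breakdown, 2 were called higher and 2 lower (33.3% called, against 7.47% of all loci), with a median of 0.14. ESM1, which favours isothiocyanates over nitriles, had 0.469, 0.37 and 0.433 in Ts-1, against 1.06, 0.947 and 0.995 in Col-0, a 2.37-fold lower signal (adjusted p = 2.5e-09). NSP5, a nitrile-specifier protein, was 1.44-fold lower, and the myrosinase TGG2 was 1.59-fold higher. PYK10, a beta-glucosidase of endoplasmic reticulum bodies, spread widely within each accession, with 1.45, 3.79 and 2.49 in Ts-1 and 0.474, 1.57 and 1.34 in Col-0, and the arrays overlapped. Its difference of 1.26 (adjusted p = 0.019) became 0.92 without Ts-1 LL replicate 2 (adjusted p = 0.14) and 0.72 without Col-0 LL replicate 1 (adjusted p = 0.23), and it was 0.15 with each array placed on its own (adjusted p = 0.9).

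Salicylic acid defence genes had the second highest median of the lists, after aliphatic glucosinolate synthesis. Salicylic acid accumulates after infection, is sensed through the NPR proteins and switches on pathogenesis-related genes. Of 25 measured members, 10 were called higher and 1, WRKY70, with no settled direction (44.0% called, against 7.47% of all loci). The median difference was 0.41. WRKY54, a transcription factor of this response, was the most raised of the members with a placed direction, with 2.18, 2.36 and 2.38 in Ts-1, against 0.958, 0.995 and 1.05 in Col-0 (2.3-fold, log2 1.2 ± 0.17, SE, adjusted p = 2.5e-06). RLP23, a receptor of microbial peptides, had 1.97, 1.86 and 2.69 in Ts-1, against 0.961, 1.03 and 1.01 in Col-0, which is 2.14-fold. ACD6, an ankyrin membrane protein that promotes salicylic acid accumulation, had 2.32, 1.71 and 2.09 in Ts-1, against 1.06, 0.939 and 1.0 in Col-0. At ACD6 the fold-change was 2.02 (adjusted p = 1.6e-06), and in all of these genes the accessions did not overlap.

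SARD1, which activates salicylic acid synthesis, was 1.88-fold higher, NIMIN1, which binds NPR1, 1.81-fold, and PR5 1.75-fold. CRK5, WRKY38 and NPR3 were called at 1.7-fold, 1.64-fold and 1.58-fold. PR1, the common marker of the response, was uneven, with 2.86, 2.53 and 1.02 in Ts-1, against 0.958, 0.898 and 1.16 in Col-0. The third Ts-1 array lay among the Col-0 arrays, and the difference of 0.96 (adjusted p = 0.037) was 0.68 without Ts-1 LL replicate 1 (adjusted p = 0.21) and 0.77 without Ts-1 LL replicate 2 (adjusted p = 0.17). Without Col-0 LL replicate 1 or 2 it was 0.93 or 0.88 (adjusted p = 0.096 and 0.11). WRKY70, the close relative of WRKY54, was 3.19-fold higher or 3.13-fold lower. Among 67 WRKY factors, 10 read higher and 2, WRKY70 among them, read lower (17.9% called, against 7.47% of all loci).

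Several other groups were also called at shares above the 7.47% of all loci, although jasmonate defence was near that share. Defensin-like genes lay below it, with 3 of 107 called (2.8%), 3 higher and 0 lower. Of 28 jasmonate defence genes, 3 were called higher (10.7%), each an enzyme of jasmonate synthesis: AOC2 (2.16-fold), LOX2 (1.99-fold) and AOC1 (1.92-fold). The median of the list was 0.16 in LL and -0.07 in HL, where 1 member was called. With each array placed on its own, the adjusted p was 0.063 for LOX2 and 0.35 for AOC1. JMT, which makes methyl jasmonate and was named for its size and not as a member of the list, was 2.37-fold lower. All 4 called wall-associated kinases, of 12 measured (33.3%), were higher, as were the 5 called ethylene response factors of 21 (23.8%). Of 40 cysteine-rich receptor-like kinases, 5 read higher and 4 lower (22.5%), 1 of them past 2.51-fold, and of 52 receptor-like proteins, 5 read higher and 7 lower (23.1%), 3 of them past 2.51-fold.

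**Figure D2:**
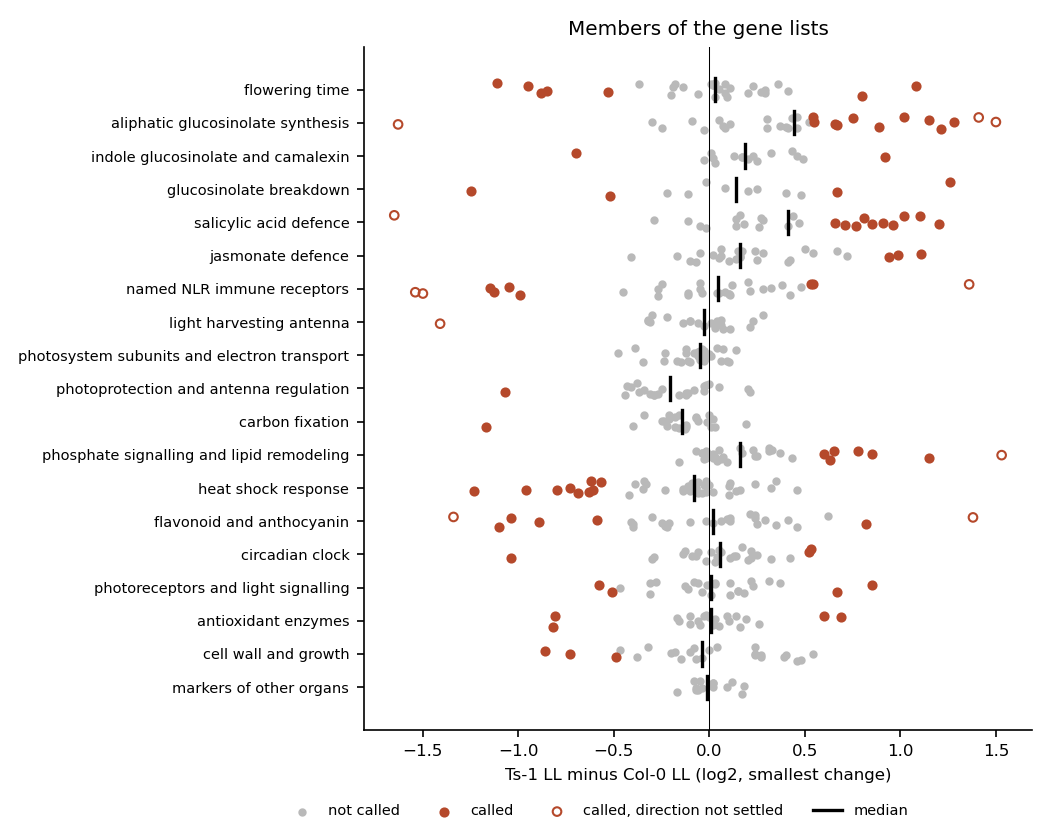
Difference Ts-1 LL minus Col-0 LL (log2) of each member of 19 gene lists, 1 row per list, with the list median as a black bar. Grey points were not called, filled red points were called, and open red points were called beyond 2.51-fold with no settled direction. The medians of aliphatic glucosinolate synthesis (0.45) and salicylic acid defence (0.41) lie farthest to the right.

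Named immune receptors of the NLR class, intracellular proteins that detect pathogen effectors, were called in both directions. Of 32 measured, 9 were called (28.1%, against 7.47% of all loci), and the median difference was 0.04. RPP13, a receptor of downy mildew, had 0.457, 0.406 and 0.498 in Ts-1, against 0.998, 0.945 and 1.06 in Col-0, 2.21-fold lower (adjusted p = 8.4e-11). The Ga-0 arrays had 0.407, 0.466 and 0.412. ADR1, a helper of other NLRs, was 2.18-fold lower, with 0.444, 0.494 and 0.438 in Ts-1, against 0.959, 0.96 and 1.09 in Col-0. Here the Ga-0 arrays stood at 1.1, 1.1 and 1.03, near Col-0. RPP1 and RPP5, both downy mildew receptors, were 2.07-fold and 1.99-fold lower, although at RPP5 the readings among Ts-1, Ga-0 and Col-0 did not add up. ZAR1 and AT5G66910, a helper of the NRG1 family, were 1.46-fold and 1.45-fold higher, and AT5G66910 moved to 0.48, inside the fold limit, without Ts-1 LL replicate 1. The loci listed as RPP2A (AT4G19500) and RPP2B (AT4G19510), neighbours on chromosome 4, differed by 2.57-fold higher or 3.89-fold lower, and by 3.44-fold higher or 2.91-fold lower. At WRR4, a white rust receptor, the readings were 3.54-fold higher and 2.83-fold lower.

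Heat shock genes were lower in Ts-1 wherever they were called. Chaperones of this response keep proteins soluble during heat and are also made when light is raised. Of 40 measured members, 0 were called higher and 9 lower (22.5% called, against 7.47% of all loci). The median of the whole list was -0.08. HSP17.6II, a small heat shock protein, had 0.39, 0.384 and 0.516 in Ts-1, against 1.14, 0.797 and 1.11 in Col-0, 2.35-fold lower (log2 -1.23 ± 0.17, SE, adjusted p = 1.1e-06). HSFA2, the heat shock factor that sustains the response, had 0.533, 0.501 and 0.504 in Ts-1, against 1.11, 0.898 and 1.01 in Col-0, 1.95-fold lower (adjusted p = 7.3e-07). HSP101, a disaggregase, had 0.674, 0.593 and 0.471 in Ts-1, against 1.04, 1.0 and 0.959 in Col-0. The 3 genes showed no overlap between the accessions, but with each array placed on its own the adjusted p of HSP101 was 0.21. HOP3, a co-chaperone, was 1.65-fold lower, the small heat shock protein AT5G51440 1.62-fold, HSP70 (AT3G12580) and the small heat shock protein AT1G07400 1.54-fold each, ROF2 (AT5G48570) 1.53-fold and FES1A 1.48-fold. HSP70 moved to -0.46 without Col-0 LL replicate 3, inside the fold limit, and ROF2 to -0.47 without Ts-1 LL replicate 2 (adjusted p = 0.067). Ga-0 LL arrays had 1.49, 1.47 and 1.36 for HSP70 and 1.13, 1.21 and 1.09 for HSP101, and Ts-1 LL lay below Ga-0 LL there by 1.15 and 0.99 (log2, adjusted p = 2.1e-07 and 5.4e-08).

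**Figure D3:**
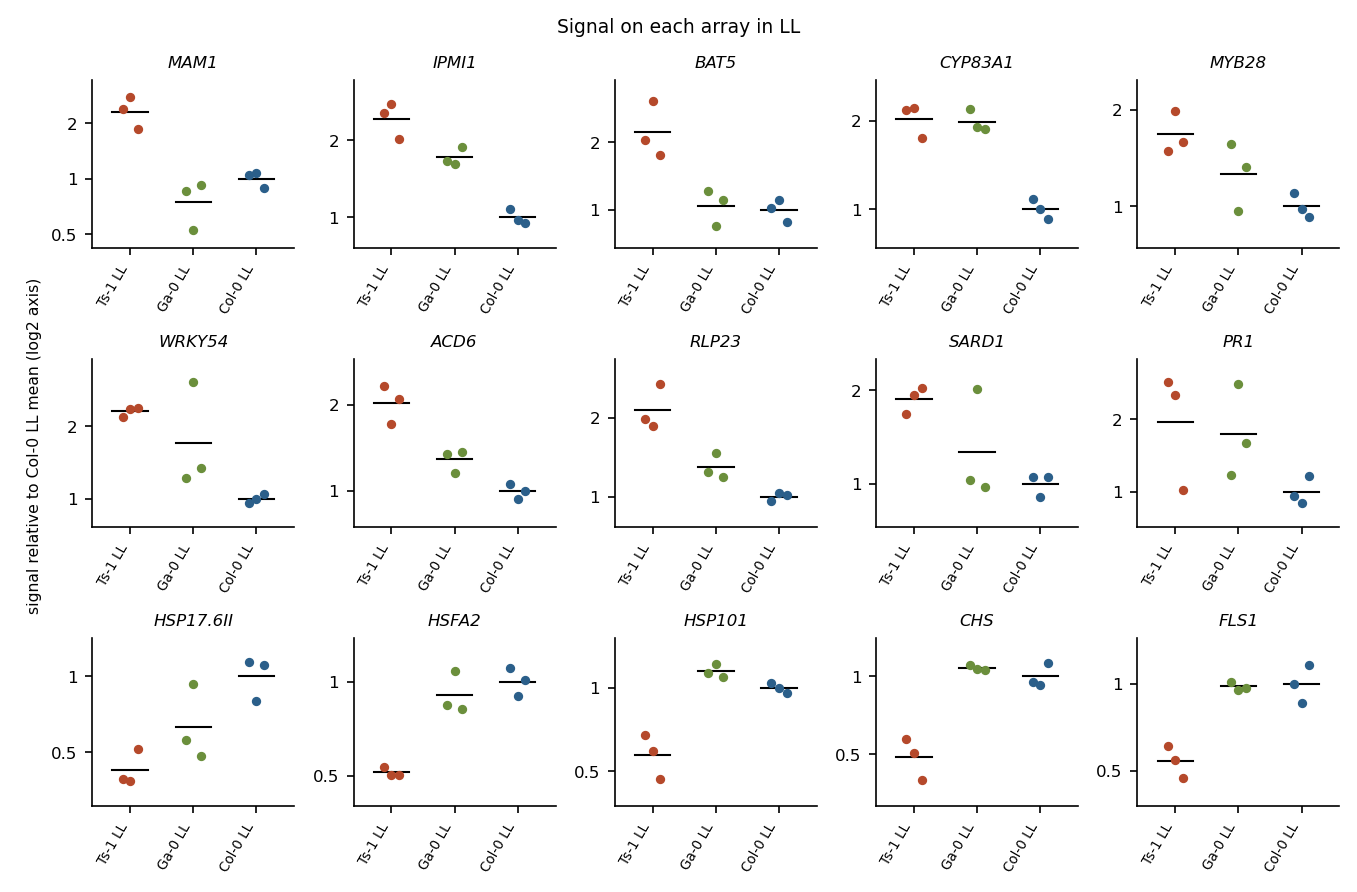
Signal on each array relative to the geometric mean of the Col-0 LL arrays (log2 axis) in Ts-1 LL, Ga-0 LL and Col-0 LL, 3 arrays each, with the geometric mean as a bar. The upper row holds glucosinolate genes, the middle row salicylic acid defence genes and the lower row heat shock and flavonoid genes, and among these 15 genes only PR1 has a Ts-1 array inside the range of Col-0.

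Phosphate signalling and lipid remodeling genes were higher in Ts-1 in LL at 6 of the 7 called members, and the direction of the other one is not settled. In phosphate-limited plants, phospholipids are broken down and replaced by lipids without phosphorus, and SPX proteins report the phosphate status. Of 33 measured members, 7 were called (21.2%, against 7.47% of all loci), with a list median of 0.16. SPX1, a sensor that holds back the phosphate starvation response, had 2.49, 2.11 and 2.06 in Ts-1, against 0.888, 1.04 and 1.08 in Col-0, 2.21-fold higher (log2 1.15 ± 0.17, SE, adjusted p = 5.2e-06). PAP17, a purple acid phosphatase, had 2.15, 1.65 and 1.63 in Ts-1, against 0.997, 0.942 and 1.06 in Col-0 (1.8-fold). With each array placed on its own, PAP17 kept its difference of 0.85, but its adjusted p was 0.16. SQD2, which completes the sulfolipid, had 1.8, 1.32 and 1.61 in Ts-1, against 1.03, 0.922 and 1.05 in Col-0 (1.57-fold). The Ts-1 arrays lay above the Col-0 arrays at each of them. PHO2, which limits phosphate transport to the shoot, was 1.72-fold higher, and the glycerophosphodiester phosphodiesterases GDPD2 and GDPD5 were 1.55-fold and 1.51-fold higher. GDPD1 (annotated as SRG3) had the widest gap and no settled direction, 2.88-fold higher or 3.47-fold lower.

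Photosynthesis lists were called between the accessions in LL at shares of 0% to 4.76%, against 7.47% of all loci, a gap that was not tested. None of 33 genes of the photosystems and electron transport was called, with differences from -0.48 to 0.14. Of 21 antenna genes only LHCB2.1 was called, 2.65-fold lower or 3.77-fold higher, with 0.373, 0.351 and 0.41 in Ts-1, 0.336, 0.44 and 0.46 in Ga-0 and 0.829, 1.08 and 1.11 in Col-0. In carbon fixation only RBCS2B, a small subunit of Rubisco, was called among 24 genes. It had 0.434, 0.424 and 0.477 in Ts-1, against 1.05, 0.976 and 0.975 in Col-0, 2.25-fold lower (adjusted p = 3.0e-11), and the Ga-0 arrays had 0.427, 0.481 and 0.464. LHCB2.1 and RBCS2B each belong to a family of near-identical copies. Of 24 genes of photoprotection, ELIP2, an early light-induced protein, was called 2.09-fold lower. In this list 21 of the 24 stood below 0, with a median of -0.20 in LL and -0.07 in HL. The lean was shared by carbon fixation (20 of 24 below 0, median -0.15) and by the photosystem and electron transport list (26 of 33, median -0.05). Over all loci, 11970 of 27826 stood below 0.

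Flavonoid genes split. Flavonols absorb ultraviolet light, and anthocyanins colour stressed leaves. Of 31 measured, 2 were called higher and 5 lower (22.6% called, against 7.47% of all loci). CHS (annotated as TT4), the entry enzyme, had 0.574, 0.505 and 0.396 in Ts-1, against 0.949, 0.929 and 1.13 in Col-0, 2.06-fold lower (adjusted p = 1.6e-09), and FLS1, flavonol synthase, was 1.85-fold lower. At both, the Ga-0 arrays were near those of Col-0, with 1.11, 1.07 and 1.06 for CHS and 1.02, 0.956 and 0.967 for FLS1. MYBL2, a repressor of anthocyanin genes, read 2.14-fold lower and SCPL10, a serine carboxypeptidase-like protein, 1.51-fold lower. SCPL10 moved to -0.40, inside the fold limit, without Ts-1 LL replicate 3, and at MYBL2 the readings among the 3 accessions did not add up. In HL the reading of MYBL2 was 1.41, past 2.51-fold, so its direction there is not settled. MYB111, an activator of flavonol genes, was 2.53-fold lower or 3.95-fold higher. The anthocyanin activator PAP1 had 3.75, 3.11 and 1.5 in Ts-1, against 0.857, 1.12 and 1.05 in Col-0, which is 2.6-fold higher or 3.85-fold lower. TT19 (annotated as GSTF12), a carrier of anthocyanins, had 2.08, 2.5 and 1.05 in Ts-1, against 1.12, 1.16 and 0.772 in Col-0. The TT19 arrays overlapped, and the difference of 0.82 (adjusted p = 0.026) was 0.56 without Ts-1 LL replicate 2 (adjusted p = 0.2), 0.63 without Col-0 LL replicate 3 (adjusted p = 0.15) and 0.70 without Ts-1 LL replicate 1 (adjusted p = 0.11).

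Flowering time genes were called at 7 of 30 loci (23.3%, against 7.47% of all loci). FLC, the repressor that cold silences, had 0.537, 0.53 and 0.347 in Ts-1, against 1.0, 1.03 and 0.97 in Col-0, 2.16-fold lower (adjusted p = 6.5e-08). With each array placed on its own, FLC stayed at -1.11 with an adjusted p of 0.056. Of its relatives, MAF3 was 1.93-fold lower and MAF5 2.11-fold higher. MAF5 had 2.3, 2.15 and 1.91 in Ts-1, against 1.1, 0.842 and 1.08 in Col-0, so that relatives of FLC were read in opposite directions. At MAF3 the readings among the 3 accessions did not add up. The floral promoters SOC1 (annotated as AGL20) and SPL4 were 1.84-fold and 1.8-fold lower, the repressor CDF1 1.44-fold lower and the repressor TEM1 1.75-fold higher. CDF1 moved to -0.44 without Col-0 LL replicate 1, inside the fold limit.

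Light signalling genes were called at 4 of 27 loci (14.8%) and clock genes at 3 of 26 (11.5%), against 7.47% of all loci, and both lists had medians near 0 (0.01 and 0.05). PHYB, the red light receptor, had 0.693, 0.689 and 0.631 in Ts-1, against 1.04, 0.976 and 0.981 in Col-0, 1.49-fold lower (adjusted p = 1.2e-08). HFR1, a factor of shade and far-red responses, had 1.75, 1.96 and 1.69 in Ts-1, against 0.965, 1.0 and 1.04 in Col-0, 1.8-fold higher (adjusted p = 6.2e-10). The arrays were tight in both accessions at these genes. BBX21 was 1.59-fold higher and RUP2 1.43-fold lower. In the clock list, LKP2, a relative of ZEITLUPE, was 2.06-fold lower, and PRR7 and RVE1 were 1.45-fold and 1.44-fold higher. Among 22 antioxidant enzymes, FSD1, a chloroplast iron superoxide dismutase, was 1.75-fold lower, VTC5, of ascorbate synthesis, 1.76-fold lower, CAT3, a catalase, 1.61-fold higher and GPX7 1.51-fold higher. The cell wall enzymes XTH9, XTH22 (annotated as TCH4) and EXPA1 were 1.81-fold, 1.65-fold and 1.4-fold lower. Several of these small differences fell inside the fold limit with 1 array left out. Without Ts-1 LL replicate 1, GPX7 was at 0.48 and EXPA1 at -0.47, and without Ts-1 LL replicate 2, EXPA1 was at -0.40 and RUP2 at -0.48. Without Ts-1 LL replicate 3, RVE1 was at 0.40 and PRR7 at 0.47, and without Col-0 LL replicate 1, BBX21 was at 0.46, PRR7 at 0.48, RUP2 at -0.48 and EXPA1 at -0.46.

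Outside the lists, the largest differences with a placed direction that were also called in HL were of mixed function. On the higher side stood PUP1, a purine permease, with 2.54, 2.57 and 2.37 in Ts-1, against 1.06, 1.02 and 0.918 in Col-0 (2.49-fold, adjusted p = 6.0e-07). GATL2, a galacturonosyltransferase-like gene, and CSLG1, a cellulose synthase-like gene, followed at 2.48-fold and 2.46-fold. WAK2, a wall-associated kinase, had 2.67, 2.33 and 2.27 in Ts-1, against 1.1, 0.914 and 0.998 in Col-0. These genes were above Col-0 on every Ts-1 array. SCPL7 (2.43-fold), the pathogen-induced lipase PLA2A (2.38-fold), the trehalose phosphate phosphatase TPPJ (2.37-fold), the low-sulfur response gene LSU2 (2.35-fold) and SIB1 (2.26-fold), a WRKY33 partner, completed this side with IPMI1, MAM1 and WRKY54. The difference of PLA2A depended on the placing: with each array placed on its own, it was 0.14 (adjusted p = 0.85).

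On the lower side, ETP1, an F-box protein that targets EIN2 of ethylene signalling, had 0.435, 0.453 and 0.388 in Ts-1, against 1.01, 1.03 and 0.96 in Col-0 (2.36-fold, adjusted p = 5.0e-14). GSTU16, a glutathione transferase, ELF5A-1, a translation factor, and RK1, a receptor kinase, each read 2.47-fold lower. Their Ts-1 arrays ranged from 0.332 to 0.456, with no overlap with Col-0. VAMP728 (2.4-fold), SAUR63 (2.39-fold), the amino acid transporter CAT8 (2.36-fold), MYB70 (2.35-fold) and ANK (AT5G54610, 2.35-fold) were also lower, together with JMT, ESM1 and HSP17.6II. For RK1 and ANK the readings against Ga-0 did not add up, so at least 1 difference among the 3 accessions exceeds the limit.

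Rosettes in HL gave an accession difference that shares no array with that in LL. Of the 2078 loci called in LL, 1946 (93.6%) had the same sign in HL, against 68.5% of all loci, and 1164 (56.0%) were called there in the same direction. These were 63.9% of the 1822 loci called in HL (6.55% of all loci, 3.03% higher and 3.52% lower). With the opposite sign, 53 were called in HL, of which 17 had a placed direction in LL. A sequence difference between the accessions would act alike in both irradiances, and it and a difference in RNA cannot be told apart by this comparison. Among loci with a placed direction, the median of those higher in LL was 0.65 in LL and 0.46 in HL. The median of those lower in LL was -0.68 in LL and -0.59 in HL. These loci were chosen by their LL difference, which favours larger values in LL. The smaller HL medians therefore cannot show whether the accession difference changes with irradiance. In the glucosinolate list 9 members were called higher in HL and 0 lower, with a median of 0.32, and in the salicylic acid list 9 and 0, with a median of 0.34. The heat shock list held 21 called lower and 2 called higher in HL, HSFA1D and HOP3, with a median of -0.50, and the direction of HOP3 in HL is not settled.

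The phosphate and lipid list differed from these. Its median was 0.02 in HL, where 1 member, GDPD2, was called. Relative to the Col-0 HL mean, SPX1 had 1.1, 1.13 and 0.847 in Ts-1 HL, against 0.659, 1.4 and 1.09 in Col-0 HL, and SQD2 had 1.03, 0.975 and 0.935 in Ts-1 HL, against 0.857, 1.09 and 1.07 in Col-0 HL. The HL arrays of the accessions overlapped at both. The light response in Ts-1 minus that in Col-0 was -1.12 ± 0.24 for SPX1 (SE, adjusted p = 0.023), -1.06 ± 0.21 for PAP17 (adjusted p = 0.016), -0.68 ± 0.14 for SQD2 (adjusted p = 0.023) and -1.34 ± 0.22 for GDPD1 (adjusted p = 0.0019, a size whose direction is not settled). For PHO2 it was -0.63 (adjusted p = 0.086), for GDPD5 -0.32 (adjusted p = 0.44) and for GDPD2 -0.12 (adjusted p = 0.84), so these 3 did not pass the limma test of the difference. Over all loci, 142 (0.51%) passed it, and of the 2078 loci called in LL, 59 (2.84%) did.

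**Figure D4:**
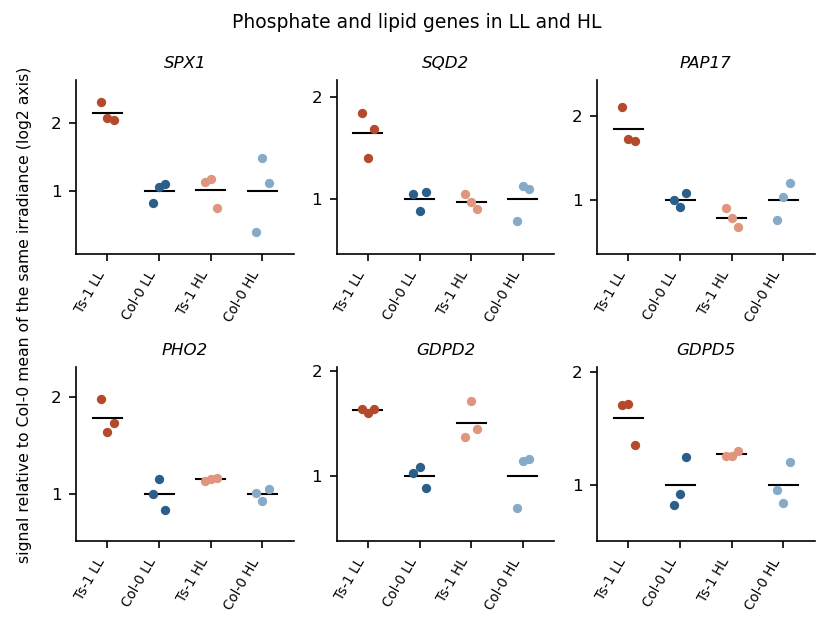
Signal of 6 phosphate and lipid genes on each array (log2 axis), relative to the Col-0 mean of the same irradiance, in Ts-1 LL, Col-0 LL, Ts-1 HL and Col-0 HL, 3 arrays each, with the geometric mean as a bar. All Ts-1 LL arrays lie above the Col-0 LL arrays, and at SPX1, SQD2 and PAP17 the HL arrays of the accessions overlap.

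**Figure D5:**
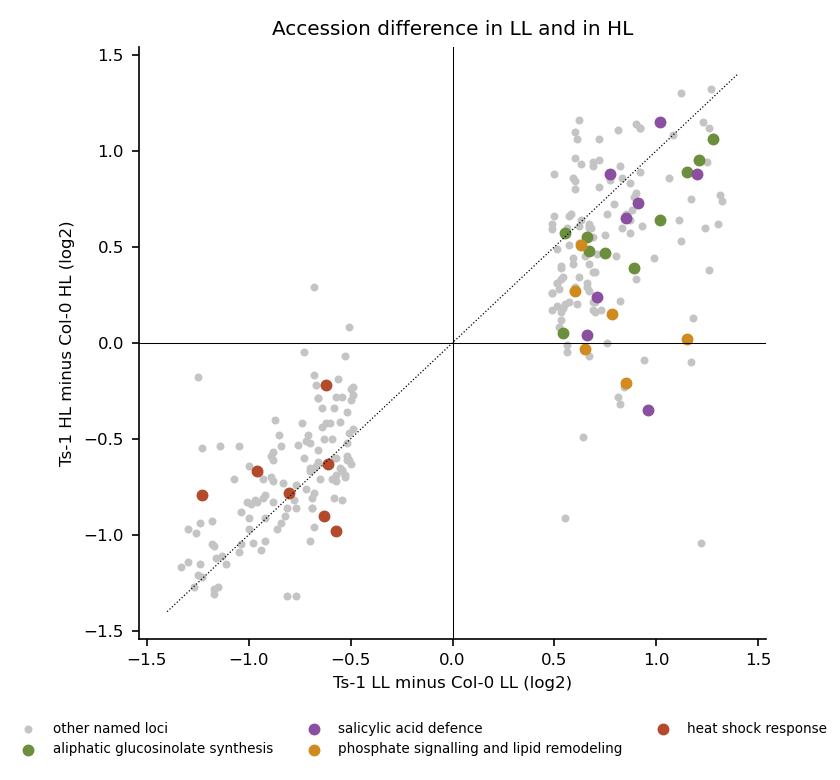
Accession difference in HL (vertical, log2) against that in LL (horizontal, log2) for 273 called loci that are list or family members, in runs of neighbours or among the largest changes, and whose readings stay within 2.51-fold in both. Colours mark 4 lists, the dotted line marks equal differences, and of the 6 phosphate and lipid genes, SPX1, PAP17, SQD2 and PHO2 lie farthest below it.

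The Col-0 arrays of later hours, which share no array with the LL comparison, give a further description of the called loci with a placed direction. At 25 hr after the irradiance increase, 2.58% of all loci were called higher and 2.47% lower in Col-0 HL against Col-0 LL. Of the loci that were higher in Ts-1 LL, 11.5% were called higher and 3.5% lower there, and of those lower in Ts-1 LL, 4.72% were called higher and 11.1% lower. At 3.5 hr, where 3.94% of all loci were called higher and 3.77% lower, the loci higher in Ts-1 LL were called higher at 10.4% and lower at 11.8%. The loci lower in Ts-1 LL were called higher at 11.4% and lower at 9.66%. The excess in the direction of the accession difference was thus seen at 25 hr and not at 3.5 hr.

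Called loci were spread over the nuclear chromosomes, with 7.02% to 8.04% of the loci of each. Of 92 mitochondrial loci, 16 were called, a larger share than the 7.47% of all loci, 10 higher, 2 lower and 4 with no settled direction, and the median was 0.16 in LL and -0.01 in HL. Of 14 plastid loci 0 were called, with differences from -0.26 to 0.25. The immediate neighbours of called loci were themselves called in 14.5% of 4156 places, against 7.47% of all loci, and 43 runs of at least 3 adjacent called loci held 137 loci. Overlapping loci are counted among them. The longest, ATMG00830 to ATMG00880 in the mitochondrial genome, had 6 loci that read from 0.87 to 1.61 in LL and from 0.57 to 1.41 in HL. At ATMG00850, ATMG00860, ATMG00870 and ATMG00880 the LL difference lay past 2.51-fold, so its direction is not settled, and only ATMG00830 and ATMG00840 (0.87 and 1.26) were higher with a placed direction. Directions within a run could be alike or mixed. On chromosome 2, the cyclic nucleotide-gated channels CNGC3, CNGC11 and CNGC12 all read higher, by 0.60, 0.59 and 0.89. In a run of 4 loci on chromosome 1, AT1G72910 read higher by 0.92 and TIR (AT1G72930) lower, at -1.18, while AT1G72900 and AT1G72920 (1.42 and 1.36) have no settled direction. Some runs, such as AT1G19394, AT1G19396 and AT1G19397 (-1.52, with no settled direction, -1.17 and -0.68), hold loci that overlap in the annotation, so that their signals are not separate measurements.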

How the data were processed

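Expression was measured on Affymetrix AraGene arrays, and groups and replicate numbers follow the labels. The authors summarised probes per locus with RMA (background correction, quantile normalization). The deposited values are another unit than log2: the digits of linear RMA signals without a decimal separator (1 of 918258 keeps it). How the separators were lost is not given in the sources used here.

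Within a group, the power of 10 of each array was chosen so that replicates lie nearest each other. Each contrast was then read as the smallest change, a step extended to HL, Ga-0 and interaction contrasts after the values were seen. The log2 values (33 arrays) entered a limma 3.58.1 fit under R 4.3.3 (1 mean for each of 11 groups, eBayes without trend, 22 residual and 8.37 prior degrees of freedom), with p-values adjusted by Benjamini-Hochberg over 27826 loci. Tables were made in Python 3.11.15 with pandas 2.3.3. The steps were also run on simulated data with known differences, an outcome not given here. Some of those differences exceeded the 3.16-fold limit, where the smallest reading has the opposite direction. The simulated spread was taken from placed values, so the run could not check the placing of the real data. The number of arrays limits the precision.

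The comparison and the gene lists were chosen with earlier results of these data known. Genes are named where they are called members of a list or of a run of at least 3 called neighbours, or are among the 12 largest differences in each direction, up to 2.51-fold, that did not overlap and were called alike in HL. Families were taken by symbol, since the annotation (TAIR10.1, 27241 loci matched) holds no descriptions. Same-numbered arrays of both accessions deviated together (correlations of 0.164, 0.266 and 0.138). The main fit had no replicate block, and this pairing was fitted only as an alternative. The alternatives were the placing, the arrays fitted, the block, the limits and adjustment, centring, a robust fit, Col-0 LL of other days and each array left out. No sequence was read.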

Additional observations from a re-analysis of the deposited data

Results flagged for a closer look

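At 8 of the genes named above, the accession difference changed with irradiance by the limma interaction contrast. It is the light response in Ts-1 minus that in Col-0 (log2, adjusted p below 0.05 and 1.4-fold). The contrast passed at 142 of all loci (0.51%) and at 59 of the 2078 loci called in LL (2.84%). The named genes were called in LL and the contrast uses the same LL arrays, so a larger share among them can arise from that choice. It passed for 4 of the 7 called phosphate and lipid genes. SPX1 was at -1.12, SQD2 at -0.68, PAP17 at -1.06 and GDPD1 (SRG3) at -1.34, a size whose direction is not settled. PHO2, GDPD5 and GDPD2 were at -0.63, -0.32 and -0.12 and did not pass. The accession difference in HL was 0.02 for SPX1, -0.03 for SQD2, -0.21 for PAP17 and 0.19 for GDPD1.

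In the heat shock list, the small heat shock protein AT5G51440 was at -0.83 and HOP3 at -1.14. AT5G51440 read -0.69 in LL and -1.52 in HL, a value past 2.51-fold whose direction is not settled. For HOP3 the smallest readings, -0.73 in LL and 1.45 in HL, did not add up with the interaction, so at least 1 of the 3 exceeds the limit. MYB111, the flavonol activator, was at 0.72, with -1.34 in LL and -0.62 in HL. RUP2, a repressor of the ultraviolet B response, was at 0.59, with -0.51 in LL and 0.08 in HL.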

How the results depend on the processing

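The count of 2078 called loci stayed within 1.5 times under another placing of single arrays (1869), fits of 6 or 18 arrays, median centring, a robust fit, Col-0 LL of 3 days and the replicate block (2076, no named gene lost), and was 2013 to 2200 with 1 array left out. Testing against 1.4-fold (treat) left 569 (219 higher, 350 lower), Bonferroni 1256 (511 higher), and a 2-fold limit 429 (180 higher, 249 lower). Under treat, Bonferroni and the 2-fold limit, salicylic acid genes called higher were 3, 6 and 3, phosphate and lipid genes 2, 4 and 2, and heat shock genes called lower 2, 3 and 1. Aliphatic glucosinolate genes called higher were 6 under treat and 6 at 2-fold. These limits are stricter by construction. At 2-fold the same-sign share in HL was 85.5%, where the cause was not tested, and over loci with a placed direction it was 95.4%. No named gene with a placed direction changed sign in any of the settings run. Every setting kept the smallest-change reading, so none of them could try the alternative direction. With Col-0 LL of 3 days averaged, CDF1, ZAR1, RVE1 and PRR7 fell inside the fold limit (-0.41, 0.45, 0.48 and 0.42). The robust fit lost PR1, PYK10, CYP71A13 and TT19. Placing each array on its own ended the call of 20 of 108 named genes. Of these, 12 kept their difference and lost the adjusted p: IPMI1 (1.28), BAT5 (1.15), LOX2 (0.99), PR1 (0.96), AOC1 (0.94), PAP17 (0.85), TT19 (0.82), SAUR63 (-1.26), FLC (-1.11), HSP101 (-0.80), HOP3 (-0.73) and AT1G07400 (-0.62). The difference itself shrank at PLA2A (0.14) and PYK10 (0.15), and so did the size at MAM3 (0.58), WRKY70 (0.54), IPMI2 (0.39), WRR4 (0.39), BCAT4 (0.30) and PAP1 (0.27). Dim loci were not filtered, and neither quantile normalization nor a variance trend was run, since gene levels are unknown.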

Other observations

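Other gene groups were listed after values had been seen, so their counts are descriptions. Of 18 genes of sulfur assimilation and its starvation response, 3 were called higher and 4 lower (38.9% called, against 7.47% of all loci). LSU2 had 2.57, 2.04 and 2.49 in Ts-1 LL, against 1.07, 0.913 and 1.02 in Col-0 LL, while its neighbour LSU4 had 0.52, 0.503 and 0.483, against 0.997, 1.08 and 0.929. APR3, a sulfate-reducing enzyme, was 2.21-fold lower, and APK2 (annotated as AKN2), which makes the sulfate donor of glucosinolates, 1.78-fold higher. Of 12 iron deficiency genes, 33.3% were called, against 7.47% of all loci. Among them, bHLH39, a regulator of iron uptake, was 2.38-fold lower and FER4, a ferritin, 1.79-fold lower, while bHLH38 and FER1 had no settled direction. At bHLH39 the readings among Ts-1, Ga-0 and Col-0 did not add up, and its difference in HL was -0.18 (log2). The iron superoxide dismutase FSD1 stood lower as well, with 0.532, 0.531 and 0.658 in Ts-1 LL, against 0.95, 0.873 and 1.21 in Col-0 LL.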
